A study of Homo sapiens with 2 samples.

Results

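The regions described here are the sites of MLL3 that overlapped no region of GRHL2 by as much as 1 bp in KYSE510, a cell line from a human esophageal squamous carcinoma. ChIP-seq of these cells gave 1 library for each of MLL3 and GRHL2, and peaks of both were called over input. All samples are the same line with no treatment named in the labels. On chromosomes 1 to 22, outside dense tracts on chromosome 1 (212.1 to 216.7 Mb) and chromosome 9 (5.2 to 9.6 Mb), the MLL3 list held 10269 regions. Of these, 1677 had no GRHL2 region (16.3%, exact Clopper-Pearson 95% interval 15.6 to 17.1%), and 8592 had one and are called shared. The regions were chosen by the overlap of the MLL3 and GRHL2 lists, so this share is the choice itself and carries no test. With 1 library per antibody no value has an error between replicates, and all comparisons below are descriptions of these 2 lists.

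MLL3 (gene KMT2C) is an enzyme that places a single methyl group on lysine 4 of histone H3 at enhancers, the distal elements that act on promoters from a distance. It does not read a DNA motif by itself and depends on transcription factors and chromatin marks for its location. GRHL2 is a Grainyhead-like factor that binds DNA directly, opens chromatin in epithelial cells and keeps cell junction genes active.

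Each region's fold enrichment and p-value are the authors' values, and together they gave back the reads behind the region. In MACS2, the peak caller named in the submitters' processing notes, the fold is the number of fragments over the summit plus 1, divided by the number expected from the local background plus 1, and the p-value is the Poisson probability of exceeding the observed number. In each of the 12196 MLL3 and 153209 GRHL2 lines exactly 1 whole number of fragments satisfied both values to the rounding of the files. The summit fragment count thus measures the depth at each site. The local background is the number expected there from input, and it cannot fall below a genome-wide floor, which was 1.26 fragments for MLL3 and 1.5 for GRHL2. The fewest fragments in any listed region were 8 for MLL3 and 4 for GRHL2. The lists also ended at unlike strengths. The lowest −log10 q was 2.07 for MLL3 and 0 for GRHL2, and the lowest −log10 p 4.79 and 1.30. Every MLL3 region reached a −log10 q of 2, but only 18.6% of GRHL2 regions outside the tracts did. A site can thus be called shared through a GRHL2 region weaker than any listed MLL3 region. A site without a GRHL2 region is therefore a site where GRHL2 stayed below a low bar in 1 library, which is not the same as a site that GRHL2 never occupied. The number moved with that bar. It was 3440 when GRHL2 regions below a −log10 q of 2 were not counted, and 479 when a GRHL2 region within 10 kb was enough to call a site shared.

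The 2 MLL3 sites without GRHL2 with the highest fold lay in clusters of genes that are known for other tissues. The first was in the beta-globin locus on chromosome 11 (5246135 to 5247355, hg19), 1221 bp wide, with 78 fragments at its summit (exact Poisson 95% interval 61.7 to 97.3) over a background of 1.31, a fold of 34.2 and a −log10 q of 103. It ranked 48th by fold among the 10269 MLL3 regions and was the widest of the 1677. From general knowledge of hg19, the interval covers the downstream part of HBB, the gene of the adult beta chain of hemoglobin, which red cell precursors express. Among the genes of the cluster that were looked up in RefSeq, the order after HBB is HBD, the pseudogene HBBP1, the fetal genes HBG1 and HBG2, and the embryonic gene HBE1. No other MLL3 region lay within 100 kb, and the nearest was 369931 bp away (5617287 to 5617640, fold 13, shared). GRHL2 had 10 regions within 100 kb, all weak, with 5 to 7 fragments and folds of 2.40 to 3.17. The nearest of them (5250130 to 5250394, 5 fragments, fold 2.40) was 2774 bp from the MLL3 region.

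The second was in the cluster of pregnancy-specific glycoprotein (PSG) genes on chromosome 19 (43324288 to 43324830), 543 bp wide, with 44 fragments (95% interval 32 to 59.1) over the floor background and a fold of 19.9. It ranked 3 by −log10 q (47.7) and 7 by summit count among the 1677, whereas the beta-globin site was first by all 3 measures. PSG proteins are secreted by the placental syncytiotrophoblast. The PSG genes looked up in RefSeq, 10 protein-coding and 1 pseudogene, are all on chromosome 19. These genes are close copies of each other, so reads from them can be hard to place. The nearest GRHL2 region (43366209 to 43366549) was 41378 bp away and had 4 fragments, the fewest any GRHL2 region had. The cluster also held MLL3 regions that GRHL2 shared. The nearest was a weak one (43393827 to 43394071, 9 fragments, fold 4.33), and a strong one followed at 328 kb (43652414 to 43653052, 37 fragments, fold 15.7). The GRHL2 region on the weak one had 5 fragments, a fold of 2.40 and a −log10 q of 0.28, as did the one nearest to the beta-globin site. On the strong one GRHL2 had 10 fragments, a fold of 4.11 and a −log10 q of 3.18. MLL3 regions of the PSG cluster were thus listed both with and without a GRHL2 region. The beta-globin region had no other MLL3 region within 100 kb, and a shared one followed at 371 kb.

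**Figure D1:**
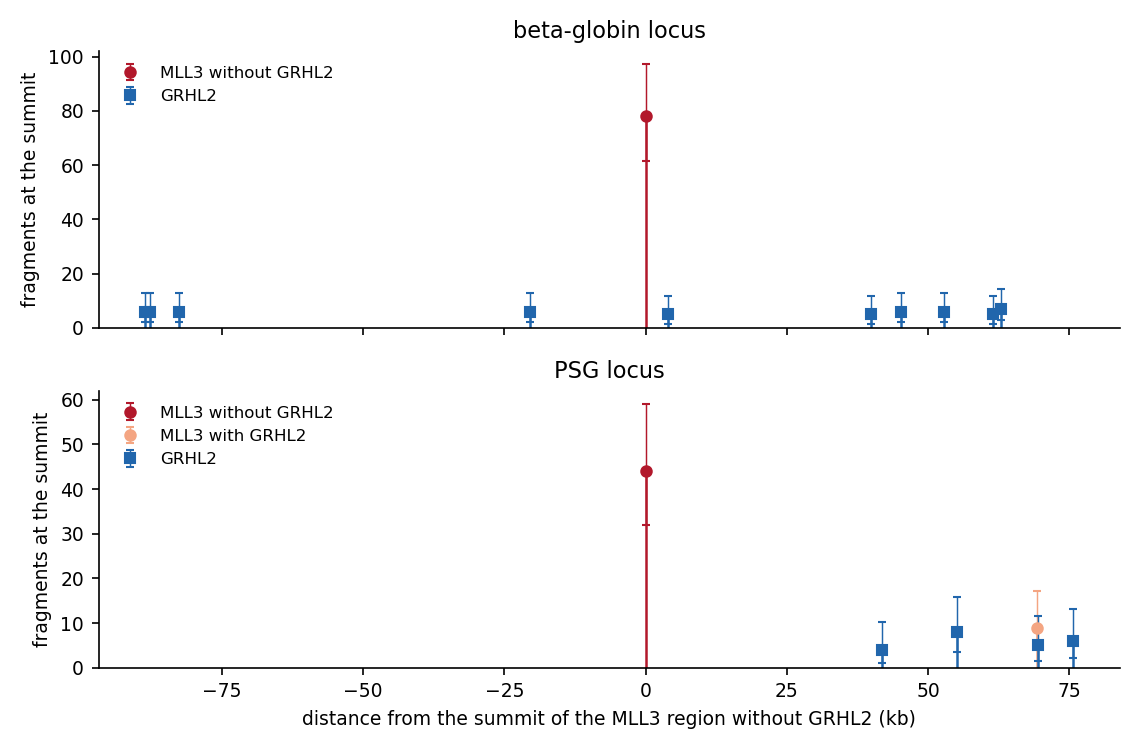
Regions within 100 kb of the summit of the MLL3 regions without GRHL2 with the highest (top, beta-globin) and next highest fold (bottom, PSG). The horizontal axis is the distance from that summit in kb, the vertical axis the number of fragments at each region's summit, and bars are exact Poisson 95% intervals for counting error. The MLL3 regions without GRHL2 have 78 and 44 fragments, and the GRHL2 regions 5 to 7 (top) and 4 to 8 (bottom). A shared MLL3 region in the bottom panel has 9. Counts of the MLL3 and GRHL2 libraries are not scaled to each other.

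Genes at other strong sites are also named from general knowledge of hg19, since no annotation of that build was at hand, and only where the location is certain. On chromosome 3 (190043740 to 190044362, fold 16.9, 57 fragments) the site lay just upstream of CLDN1, which encodes the tight junction protein claudin-1. It had a raised background of 2.43, so its count was second only to beta-globin among the 20 highest folds. On chromosome 11 (121411197 to 121411739, fold 16.8, 37 fragments) the site lay within SORL1, a sorting receptor of the endosome. On chromosome 13 (43843189 to 43843787, fold 18.2, 40 fragments) it lay within ENOX1, a cell surface oxidase. On chromosome 4 (153247034 to 153247357, fold 14.6, 32 fragments) it lay within FBXW7, the subunit of a ubiquitin ligase that marks cyclin E, MYC and NOTCH proteins for degradation. On chromosome 5 (82872953 to 82873277, fold 14.6, 32 fragments) it lay near the end of VCAN, a matrix proteoglycan. On chromosome 19 (33841362 to 33841854, fold 14.5, 42 fragments) it lay between CEBPA and CEBPG, a pair of bZIP transcription factor genes. On chromosome 14 (103453606 to 103453979, fold 13.5, 39 fragments) it lay within CDC42BPB, a kinase that acts on the actin cytoskeleton.

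The 20 highest folds, from 34.2 down to 13.4, were spread over 12 chromosomes. Ranks 3 and 5 were on chromosome 5 (53700333 to 53700701, fold 19.1, 42 fragments) and chromosome 1 (90627733 to 90628224, fold 17.7, 39 fragments). Of the 20, 10 had a background at the floor, as did 22.5% of all 1677. The fold is divided by the background, so a ranking by fold favours regions at the floor. The nearest GRHL2 region had 4 to 10 fragments and a fold of 2.00 to 4.03 in all 20 cases. Over all 1677 its medians were 7 fragments and a fold of 2.80. It reached a −log10 q of 2 in 2 of the 20 and in 24.7% of the 1677. It was more than 10 kb away for 7 of the 20, while 71.4% of the 1677 had one within 10 kb. For 4 of the 20 it was under 1 kb away, beside 25.8% of the 1677. The closest were 53 bp from a region on chromosome 20 (58616482 to 58617254, fold 14.3, 38 fragments) and 66 bp from the CDC42BPB region. Other MLL3 regions were within 50 kb of 8 of the 20 and of 49.6% of the 1677.

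In the median, MLL3 sites without GRHL2 were weaker than shared ones, and few were strong. The whole list of 12196 MLL3 regions had a median of 17 fragments at the summit. Sites without GRHL2 had a median summit count of 16 fragments (quartiles 13 and 19, highest 78), against 19 (15 and 28, highest 158) in shared regions. The median fold was 5.76 (quartiles 4.87 and 7.11), against 7.09 (5.53 and 10.2), and 99 of 1677 (5.90%, 95% interval 4.82 to 7.14%) reached a fold of 10, against 2212 of 8592 (25.7%, 24.8 to 26.7%). The upper end separated the classes more than the lower end. Only 1 of the 100 MLL3 regions of highest fold, 3 of the 500 and 13 of the 1000 had no GRHL2 region, beside 16.3% of the whole list.

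By summit count, the share without GRHL2 was lowest among the regions with the most fragments. It was 28.3% (95% interval 25.2 to 31.6%) of the 801 MLL3 regions with 8 to 11 fragments, 23% at 12 to 13, 22.8% at 14 to 15 and 22.1% (20.2 to 24.1%) of the 1811 with 16 to 18. It then was 13.9% (12.4 to 15.5%) at 19 to 24, 8.46% (7.12 to 9.95%) at 25 to 34 and 3.05% (2.23 to 4.06%) of the 1475 with 35 or more, where 45 regions remained. The intervals of the last 3 classes overlap neither each other nor those of the weaker classes, but they cover counting only and treat regions as independent. Regions with more fragments were also wider, with medians in shared regions from 268 bp at 8 to 11 fragments to 681 bp at 35 or more. A wider region meets a GRHL2 region more easily, so the share by summit count is not independent of the choice.

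Sites without GRHL2 were also narrower than shared sites at matched summit counts. At each exact number of fragments with at least 10 sites without GRHL2, which were 24 numbers between 9 and 33, their median width was the smaller. The median width was 295 bp (quartiles 232 and 378) against 409 bp (290 and 568), and 3.28% against 21.7% reached 600 bp. In regions of 8 to 11 fragments the medians were 240 and 268 bp, in those of 16 to 18 fragments 300 and 339 bp, and in those of 35 or more 462 and 681 bp. The last class is broad, and its median backgrounds were 2.62 and 1.96 fragments, as those of the 25 to 34 class were 2.43 and 1.96. A wider region has more chance to meet a GRHL2 region, so width is not independent of how the regions were chosen. The smallest width in the MLL3 list, 195 bp, was found in 134 of the regions without GRHL2 (7.99%) and in 3.64% of shared ones. Next to beta-globin, the widest were on chromosome 13 (44886898 to 44888021, 1124 bp, fold 10.6) and chromosome 11 (27955604 to 27956690, 1087 bp, fold 8.11). Summits lay in the middle in both classes, at a median of 0.49 of the width.

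**Figure D2:**
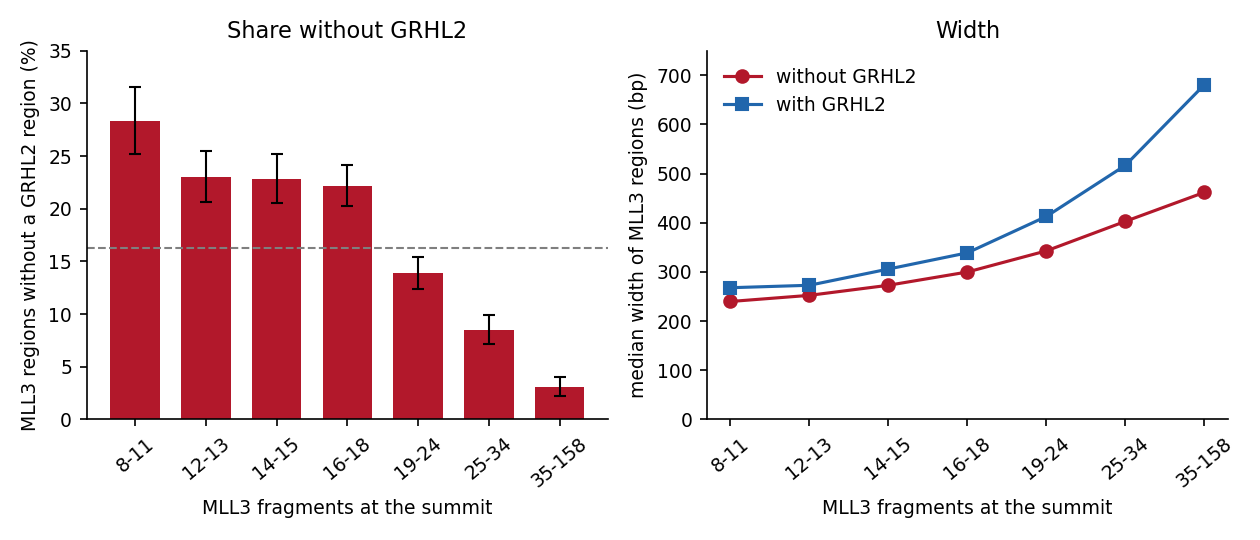
Left, share of MLL3 regions without a GRHL2 region in classes of MLL3 fragments at the summit, with exact 95% intervals as bars and the share in the whole list (16.3%) as a dashed line. Right, median width in bp of regions without GRHL2 (circles) and with GRHL2 (squares) in the same classes. The share goes from 28.3% to 3.05%, and the squares lie above the circles in all 7 classes.

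GRHL2 was seldom far away, and the GRHL2 regions nearby were about as strong as those near shared sites. The median gap from an MLL3 site without GRHL2 to the nearest GRHL2 region was 4247 bp (quartiles 936 and 12043). A GRHL2 region lay within 1 kb of 433 (25.8%, 95% interval 23.7 to 28%), within 10 kb of 1198 (71.4%) and within 100 kb of 1642 (97.9%). Shared MLL3 regions had their nearest further GRHL2 region, the one under the MLL3 region set aside, at a median of 2432 bp, within 1 kb in 26.1% and within 10 kb in 82.6%. These gaps are not like measures at short range. The GRHL2 region on a shared site had a median width of 902 bp and takes up the space beside it. Within 100 bp the shares were 6.56% for sites without GRHL2 and 0.87% for shared ones. The GRHL2 region nearest to a site without GRHL2 had a median of 7 fragments and a fold of 2.80, and 24.7% (95% interval 22.6 to 26.8%) reached a −log10 q of 2. The nearest further GRHL2 region of a shared site also had a median of 7 fragments and a fold of 2.80, and 26.8% (25.9 to 27.8%) reached that q. Over the GRHL2 list outside the tracts the median was 6 fragments and 18.6% reached it. The GRHL2 region lying on a shared site was stronger, with a median of 18 fragments, but no such region exists for the other class, so the values are not compared. Within 500 kb of the summit there were 57 GRHL2 regions in the median around sites without GRHL2 and 73 around shared ones.

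The rule sets a sharp border on a continuous range. In 110 of the 1677 regions the gap was 100 bp or less, and 202 shared regions overlapped GRHL2 by 100 bp or less. Just inside were 3 regions with a gap of 1 bp, on chromosome 8 (102903951 to 102904372, fold 10.4, and 94849973 to 94850256, fold 7.53) and chromosome 7 (91584927 to 91585121, fold 5.32). Just outside were regions on chromosome 1 (41823888 to 41824160, fold 4.56, overlap 1 bp), chromosome 9 (84177599 to 84177911, fold 6.45, overlap 2 bp) and chromosome 15 (57797254 to 57797448, fold 4.05, overlap 2 bp). At the other end, the 3 farthest from GRHL2 were on chromosome 3 (139899425 to 139899669, gap 448837 bp) and chromosome 14 (57133008 to 57133409, gap 297572 bp, and 63158761 to 63159310, gap 270665 bp).

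Most sites had no other site without GRHL2 within 50 kb. Such gaps depend on how many sites are listed, and the spacing of as many sites placed at random was not computed. The gap to the nearest other site without GRHL2 had a median of 409609 bp, and 222 of the 1677 (13.2%, 95% interval 11.7 to 15%) had another within 50 kb. To the nearest MLL3 region of any kind the median was 51145 bp, against 29350 bp for shared regions, and 49.6% (47.2 to 52.0%) had an MLL3 region within 50 kb, against 61.7% (60.6 to 62.7%). Neighbours were slightly more often alike than the list as a whole. The nearest MLL3 region had no GRHL2 either for 325 of 1676 sites without GRHL2 (19.4%, 17.5 to 21.4%) and for 14.7% (13.9 to 15.4%) of shared regions, beside 16.3% of all. Neighbours share the local density of the GRHL2 list, so these intervals, which treat regions as independent, are too narrow.

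**Figure D3:**
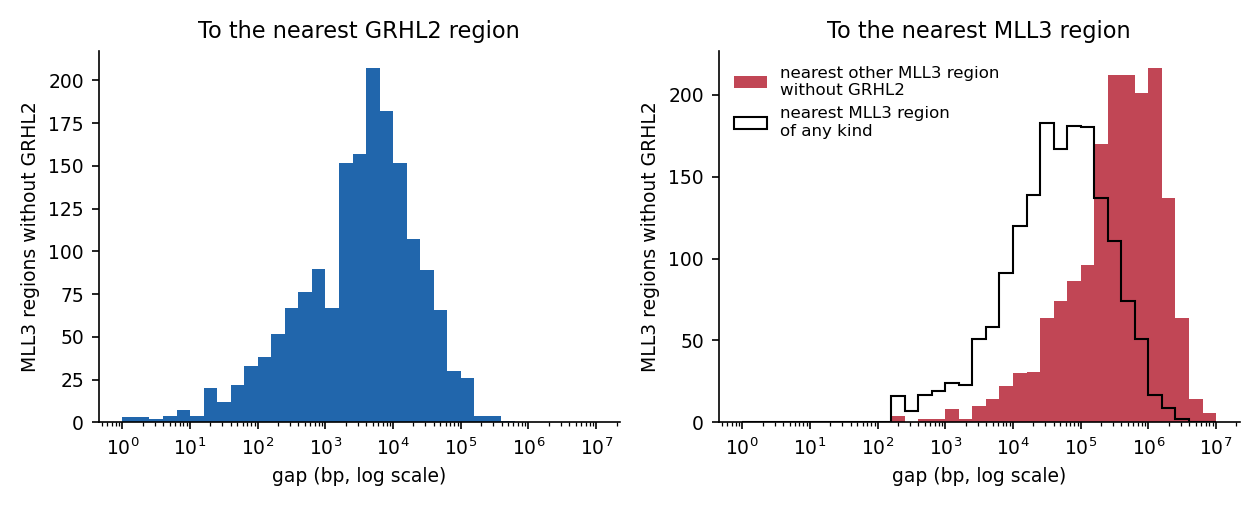
Gaps in bp, on a log axis, from each of the 1677 MLL3 regions without GRHL2 to the nearest GRHL2 region (left) and to the nearest MLL3 region (right, filled: another without GRHL2, line: of any kind). The vertical axes count regions. The medians are 4247 bp on the left and 409609 and 51145 bp on the right.

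Small groups did occur. With neighbours joined at up to 50 kb, there were 107 groups of 2 or more and 7 of 3 or more. The largest held 4 regions on chromosome 6 (3779286 to 3809359, folds 4.05 to 8.04, 11 to 36 fragments), with no GRHL2 region and no shared MLL3 region between them. A tight group of 3 on chromosome 15 (73925565 to 73932202, 6638 bp, folds 4.70 to 6.76), also without GRHL2 inside, began at the start of NPTN, which encodes the adhesion protein neuroplastin. The other 3 of the 5 with the most members and the highest fold had GRHL2 regions between the MLL3 sites. They were on chromosome 7 (43562128 to 43612417, 4 GRHL2 regions inside) at the end of HECW1, a ubiquitin ligase gene, on chromosome 12 (65990501 to 66051129, 20 GRHL2 regions) and on chromosome 1 (100087230 to 100125794, 4 GRHL2 regions) around the start of PALMD, which encodes palmdelphin. The largest groups were not made of the strongest sites, since none of these 5 held a fold above 8.04.

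Every autosome carried MLL3 sites without GRHL2, from 16 on chromosome 21 to 166 on chromosome 2. Per Mb of the listed span they were fewest on chromosomes 4 and 21 (0.41 on each) and most on chromosomes 17 (0.88) and 22 (0.87). As a share of MLL3 regions, chromosome 4 had the most (22.8%, 95% interval 18.5 to 27.5%), followed by chromosomes 18 (21.7%, 15.8 to 28.6%), 3 (21.5%, 18.3 to 25%) and 13 (21.5%, 16.2 to 27.5%). The lowest were chromosomes 21 (11.5%, 6.72 to 18%) and 10 (11.6%, 9.15 to 14.4%). The intervals of chromosomes 2, 3 and 4 lay above the share over all chromosomes and those of chromosomes 10 and 20 below it, the last by a narrow margin, while neighbours in this order overlapped. Which chromosome came first depended on the lists: it was chromosome 18 when GRHL2 within 1 kb counted as shared (20%) or when only MLL3 regions reaching a −log10 q of 5 were kept (22.1%). Chromosomes with a sparse GRHL2 list tended to have higher shares. Chromosome 4 had 17.2 GRHL2 regions per Mb and chromosome 18 had 19.7, against 59.7 on chromosome 10 (over 22 chromosomes Pearson r = -0.59, Spearman rho = -0.57, given as a description without a test, since all points come from the same pair of libraries and a denser GRHL2 list leaves fewer MLL3 regions without one).

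**Figure D4:**
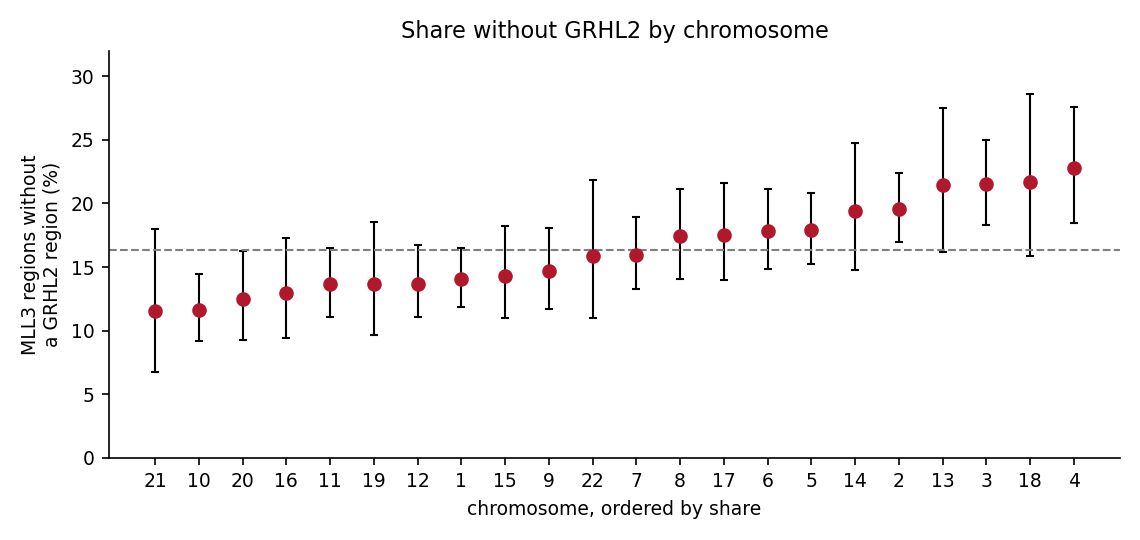
Share of MLL3 regions without a GRHL2 region (points, in percent) on each of chromosomes 1 to 22, ordered by share, with exact 95% intervals as bars. The dashed line is the share over all of them, 16.3%, and the shares run from 11.5% on chromosome 21 to 22.8% on chromosome 4.

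A long distal stretch of chromosome 3 had a raised local background from input, few GRHL2 regions and a high share of MLL3 sites without GRHL2. Between 120 and 190 Mb, a stretch chosen after its values were seen, 50 of 160 MLL3 regions had no GRHL2 region (31.25%, 95% interval 24.2 to 39.0%), against 79 of 440 on the rest of the chromosome (18%, 14.5 to 21.9%). The median background of the MLL3 regions was 3.58 fragments there and 1.53 on the rest of the chromosome, and their median summit count was 28 against 18 fragments. GRHL2 regions numbered 8.71 per Mb against 53.8, and those with a −log10 q of at least 2 numbered 4.64 against 9.14 per Mb. The listed GRHL2 regions had a median of 15 fragments in the stretch and 6 on the rest, over backgrounds of 3.74 and 1.5. MLL3 regions were thinned out less, with 2.29 against 3.44 per Mb. The median gap to GRHL2 was 37127 bp there and 3118 bp on the rest, and 11 of the 35 sites farther than 100 kb from any GRHL2 region lay in the stretch. Of the 5 sites without GRHL2 with the highest background, 4 were in it, led by chromosome 3 (181692007 to 181692380), where 59 fragments over a background of 7.53 gave a fold of only 7.03. The end of the chromosome beyond 190 Mb, where the CLDN1 site lies, differed. Its median background was also raised, at 2.95, but 5 of 54 MLL3 regions had no GRHL2 region (9.26%, 95% interval 3.08 to 20.3%) and GRHL2 regions numbered 35.6 per Mb. It is counted above with the rest of the chromosome. Before 120 Mb alone the share was 74 of 386 (19.2%, 15.4 to 23.5%).

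Off chromosome 3, the share without GRHL2 showed no single direction with the background. It was 18.6% of 1893 MLL3 regions at the floor, 15.6% of 4520 above it and up to 2, 14.8% of 2519 with 2 to 3, 16.1% of 584 with 3 to 4, 18.1% of 116 with 4 to 5 and 10.8% of 37 above 5. On chromosome 3 it was 25 of 126 at the floor and 9 of 25 above 5. These background classes were not matched for summit count, and the share fell with summit count. Over all chromosomes, sites without GRHL2 had the higher median background at 16 to 18 fragments (1.96 against 1.77 in shared regions). The same held at 25 to 34 (2.43 against 1.96) and at 35 or more (2.62 against 1.96). In the other count classes the medians were equal to 2 decimals. Over 220 bins of 10 Mb with at least 20 MLL3 regions, chromosome 3 included, the share had correlations near 0 with the median background (Pearson r = 0.07, Spearman rho = -0.08). With the number of GRHL2 regions per Mb they were -0.32 by both measures, again as descriptions of 1 pair of libraries. The part of the raised background in the share on distal chromosome 3 was not tested. The long arm of chromosome 3 is known to be gained in many squamous carcinomas, but copy number was not analysed here.

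**Figure D5:**
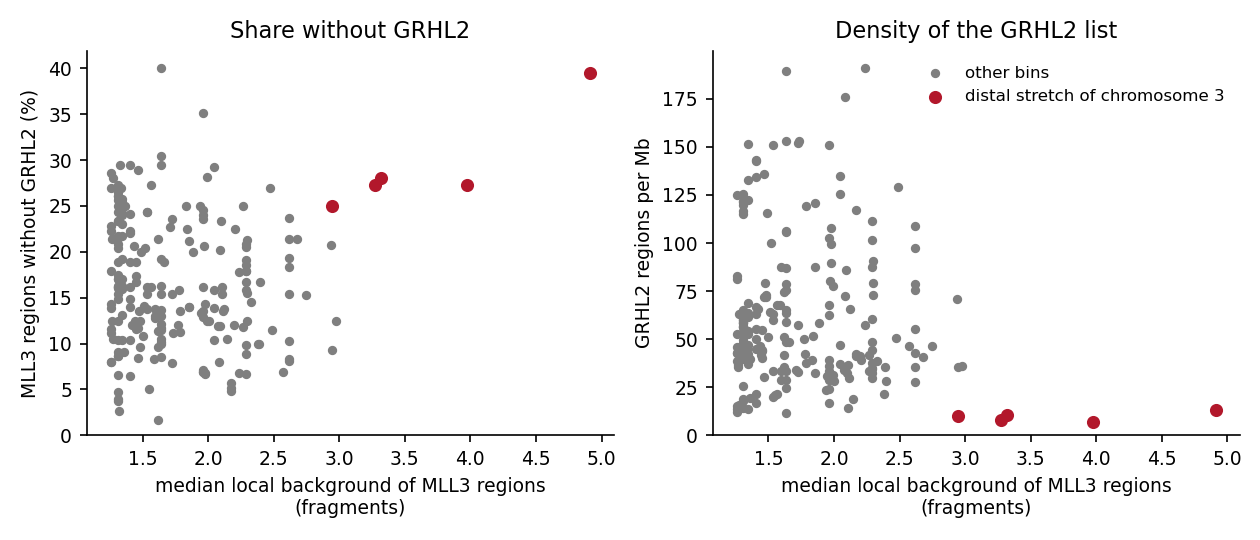
Bins of 10 Mb with at least 20 MLL3 regions, placed by the median local background of their MLL3 regions in fragments. The vertical axes are the share of MLL3 regions without GRHL2 in percent (left) and the GRHL2 regions per Mb (right). The 5 large points are bins between 120 and 190 Mb of chromosome 3, with shares of 25 to 39.5% and 7.1 to 13.2 GRHL2 regions per Mb.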

How the data were processed

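One narrowPeak list per antibody was deposited. The submitters' processing notes name BWA, Picard, MACS2 and deepTools and the build hg19. Their versions and settings are not stated in the labels. For every region the authors deposited a fold over input (a ratio), a −log10 p, a −log10 q and a score, in the order of columns that MACS2 writes. The score repeats the other columns and was not used. The other column read from the deposited files is the summit offset in bp.

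Regions were joined in Python 3.11.15 with numpy 2.4.6, pandas 2.3.3 and scipy 1.17.1. Gaps count the bases between regions, and coordinates are 1-based. Whole fragment counts were solved from fold and p (pseudocount 1, values rounded to 5 decimals), accepted within 2 times the rounding error. The formula comes from knowledge of MACS2, not from a header, and was checked against the values. Classes of fragments and background, widths at exact counts, and leaving out bins that touch a tract, were chosen after seeing the data. The largest misfit was 0.00013 in −log10 p. The solving step was first tested on simulated data. The simulated counts began at 8 fragments, so GRHL2 regions with fewer lay below the tested range. The median GRHL2 region, with 6, was among them. The highest GRHL2 count, 491, and the highest background of shared MLL3 regions, 13.4, lay above it. Exact 95% intervals cover counting only and treat fragments or regions as independent. They make no allowance for a summit being the highest point of its region. Nor do they allow for naming the strongest regions of a list, or for listing only regions above a calling bar.

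Regions named are the 20 of highest fold, the 3 widest, the 3 nearest to and the 3 farthest from GRHL2, the 5 largest groups and those of the beta-globin and PSG loci. Of the 20, those without a certain gene are mostly given as ranges. The 5 of highest background and the stretch of chromosome 3 were added after their values were seen. Rule, regions and lists were chosen with earlier results of these data known. Sequence, motifs, exons and the gene lists need an hg19 genome or annotation and were not analysed here. RefSeq (GRCh38.p14) was used for names and gene order only. Alternatives are given at the end.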

Additional observations from a re-analysis of the deposited data

Results flagged for a closer look

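MLL3 regions without GRHL2 were also listed in parts of the genome that no comparison above uses, which is why they are given here. Some are to be found wherever MLL3 was listed, as were 16.3% on the chromosomes described. Chromosome X held 70 among 254 MLL3 regions (27.6%, exact 95% interval 22.2 to 33.5%), with a median fold of 6.65 and a highest of 14.6 (32 fragments). The tracts left out on chromosomes 1 and 9 held 76 among 1627 (4.67%, 3.70 to 5.81%), all weak, with a highest fold of 6.50. Unplaced and other contigs held 6 among 46 (13%, 4.94 to 26.3%), with a highest fold of 6.20. No explanation was tested.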

How the results depend on the processing

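Of 44 values under alternative settings, 24 stayed within 1.5 times the count or within the 95% interval of the reported value, though for the highest share by chromosome the chromosome changed from 4 to 18 in 2 of them. The 20 others follow. With GRHL2 regions of a −log10 q of at least 2 only, 3440 MLL3 regions had no GRHL2 region, with a median fold of 6.07, a width of 317 bp, gaps of 43322.5 bp to MLL3 and 19230.5 bp to GRHL2, 26.2% with another within 50 kb, the highest share on chromosome 13 (44.3%) and 46.25% on distal chromosome 3. With GRHL2 within 1 kb counted as shared, the gaps were 63780.5 bp to MLL3 and 6943.5 bp to GRHL2, and 10.05% had another within 50 kb; within 10 kb, 479 were left. With MLL3 regions of a −log10 q of at least 5, the median fold was 6.45, the width 311 bp, the summit count 17 and 9.43% had another within 50 kb; at 10 or more, 443 were left. With the tracts, 15.4% had another within 50 kb. Grouping at 10 or 100 kb gave 3.82% and 20.8%. The settings for summit counts and for distal chromosome 3 were chosen after seeing the data. Without that stretch 1627 regions were left. Summit counts of 8 or more limit the list to sites of that depth. No paired analysis was possible because there were no replicates.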
